A study of Mus musculus with 2 samples.

Results

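GATA4 peaks inside shorter protein coding genes were the part of a chromatin immunoprecipitation sequencing (ChIP-seq) peak list that lay in gene bodies, away from any annotated gene end. A peak was included when its centre fell inside a protein coding gene and more than 1 kb from all annotated ends of coding and lncRNA genes. The longest protein coding gene holding the centre also had to span less than 200 kb. Of 17539 peaks in the list, 5164 met this rule, or 29.4% (exact 95% interval 28.8% to 30.1%). The rule used position only, so scores, widths and the identity of the genes were free to vary.

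The library came from cultured myoblasts, the proliferating precursors of skeletal muscle, grown from satellite cells on collagen in medium with 20% serum and 20 ng/ml basic fibroblast growth factor. Chromatin was precipitated with a mixture of 3 GATA4 antibodies in the GATA4 library and with control IgG in the other library, 1 library each and no replicate. Both libraries came from the stock Myf5tm1Pas/J, which carries a targeted Myf5 allele, and the labels do not give its zygosity. The peak list holds no expression values, so the labelled cell type could not be checked against marker levels. With single libraries there is no replicate error, the depth is unknown, and intervals below cover counting error only.

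GATA4, a transcription factor with zinc fingers, binds DNA with the core letters GATA and is best known as a regulator of heart, gut and gonad genes. Transcription factors of this kind often bind far from promoters, in introns and between genes, where they act through enhancers. The gene holding a peak need not be the gene it acts on. A start of transcription can also lie inside a gene, as an alternative promoter that makes a shorter or different transcript.

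Alternative promoters were the one place in gene bodies where both a peak and its sequence could be read. RefSeq (GRCm38.p6) lists 3113 internal starts in the gene bodies that the rule allows, on all chromosomes but 18. Of these, 154 lay inside a GATA4 peak, which is 4.95% of them. The 5 sequences shown are the start windows of the highest-scoring peaks that contain such a window whole, each running from 250 bases before to 50 bases after the start. They were chosen after their scores were seen. All are written 5′ to 3′ along the gene, and capitals mark matches on either strand to the letters AGATAA for GATA factors, TGANTCA for AP-1, GGAATG for TEAD factors or CAGCTG for E-box proteins.
Mylk3 internal start: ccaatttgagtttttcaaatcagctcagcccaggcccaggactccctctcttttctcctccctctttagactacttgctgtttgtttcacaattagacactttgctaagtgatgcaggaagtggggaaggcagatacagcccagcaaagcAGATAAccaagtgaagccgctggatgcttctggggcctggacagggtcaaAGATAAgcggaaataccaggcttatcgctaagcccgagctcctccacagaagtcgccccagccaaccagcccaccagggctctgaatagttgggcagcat
Ift46 internal start: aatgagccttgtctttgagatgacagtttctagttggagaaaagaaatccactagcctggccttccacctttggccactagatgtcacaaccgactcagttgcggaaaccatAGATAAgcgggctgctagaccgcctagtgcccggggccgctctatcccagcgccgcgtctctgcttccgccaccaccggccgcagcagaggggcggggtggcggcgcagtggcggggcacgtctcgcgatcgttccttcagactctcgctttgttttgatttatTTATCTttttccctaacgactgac
Rhobtb1 internal start: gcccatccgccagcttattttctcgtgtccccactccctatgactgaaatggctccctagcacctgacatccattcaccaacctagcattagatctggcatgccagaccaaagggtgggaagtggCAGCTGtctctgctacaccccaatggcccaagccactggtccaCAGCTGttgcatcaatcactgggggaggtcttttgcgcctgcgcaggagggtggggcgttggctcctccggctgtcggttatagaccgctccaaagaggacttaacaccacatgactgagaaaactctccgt
Jmjd1c internal start: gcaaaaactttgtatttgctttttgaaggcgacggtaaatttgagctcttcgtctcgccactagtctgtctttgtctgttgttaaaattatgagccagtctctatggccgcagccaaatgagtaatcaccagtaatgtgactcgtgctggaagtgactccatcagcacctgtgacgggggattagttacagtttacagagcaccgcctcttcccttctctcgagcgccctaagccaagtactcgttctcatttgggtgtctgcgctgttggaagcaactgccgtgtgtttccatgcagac
Fam110a internal start: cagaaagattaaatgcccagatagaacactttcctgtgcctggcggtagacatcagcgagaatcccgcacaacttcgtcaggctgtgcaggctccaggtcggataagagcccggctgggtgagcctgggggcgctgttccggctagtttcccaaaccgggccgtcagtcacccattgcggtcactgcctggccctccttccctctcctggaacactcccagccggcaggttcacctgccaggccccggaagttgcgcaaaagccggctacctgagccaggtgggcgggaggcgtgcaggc

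The highest-scoring peak at an internal start was in Mylk3, the gene of the cardiac myosin light chain kinase, with a score of 409.5. Its window, chr8:85380992-85381291 on the minus strand, holds AGATAA at 2 places, both before a start that lies 5.30 kb from the gene's 5′ end. The window of Ift46, an intraflagellar transport gene, at chr9:44772759-44773058 on the plus strand, also holds these letters at 2 places, once on each strand, under a peak with a score of 222. Rhobtb1, which encodes an atypical small GTPase family protein, had a peak with a score of 197 around an internal start 57.5 kb into the gene (chr10:69208302-69208601, plus strand). That window holds CAGCTG at 2 places and no AGATAA. The windows of Jmjd1c, a jumonji domain gene (chr10:67185500-67185799, plus strand; score 259), and Fam110a (chr2:151973932-151974231, minus strand; score 235) hold none of the 4 motifs. None of the matches in these windows overlapped another.

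AGATAA was present in 20 of the 154 start windows under a peak, or 12.99% (95% interval 8.12% to 19.3%). These windows belong to 143 peaks, so some overlap each other, and some extend beyond the peak. It was present in 10.7% of the 2959 other internal starts and in 11.2% of all 32851 start windows in the RefSeq table. The interval for the windows under a peak contains the other shares, so no difference was detectable at this number. TGANTCA was in 5.84% of the windows under a peak and in 7.71% of the other internal starts. GGAATG was in 14.3% and 15.7%, and CAGCTG in 17.5% and 18.9%, in the same order of groups. The windows under a peak had a median GC content of 58.7%, against 54.3% in the other internal starts. Sequence of the remaining peaks was not used here.

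Internal starts were sites of dense peaks. Within 500 bp of an internal start there were 149 peak centres in 2.74 Mb, or 54.3 per Mb (Poisson 95% interval 45.9 to 63.8). Elsewhere in the same gene bodies there were 8.94 peaks per Mb (8.69 to 9.19), so the density at internal starts was 6.08 times as high. Without chromosome 10 the densities were 50.03 and 8.60 per Mb. Among peaks above the median score of the whole list the densities were 18.2 and 4.45 per Mb, a ratio of 4.10. A total of 143 peaks in 141 genes covered an internal start, or 2.86% of the 5001 peaks on the chromosomes with annotated starts. Internal starts under peaks lay a median of 3.78 kb from the gene's 5′ end, and the rule excludes the first 1 kb. This distance was not computed for the other internal starts.

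Peaks at internal starts scored lower than the other peaks of these gene bodies. Their median score was 84.1, with quartiles of 69.97 and 114, against 98.8 for the others, with quartiles of 77.9 and 138. The MACS score is the authors' value for each peak and was compared only within this list. Scores above 200 were found at 5 of the peaks over internal starts, or 3.50%, against 7.80% of the others. Their widths were similar, with medians of 762 and 735 bp. Further genes with such a peak included Ddr1, a collagen receptor kinase (score 134), and Prrx1, a homeobox gene of limb mesenchyme (127). Nedd9, a focal adhesion scaffold, had a score of 102 at a start 128 kb into the gene. Cald1, which encodes the actin-binding protein caldesmon, had a score of 101 at a start 111 kb into the gene.

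**Figure D1:**
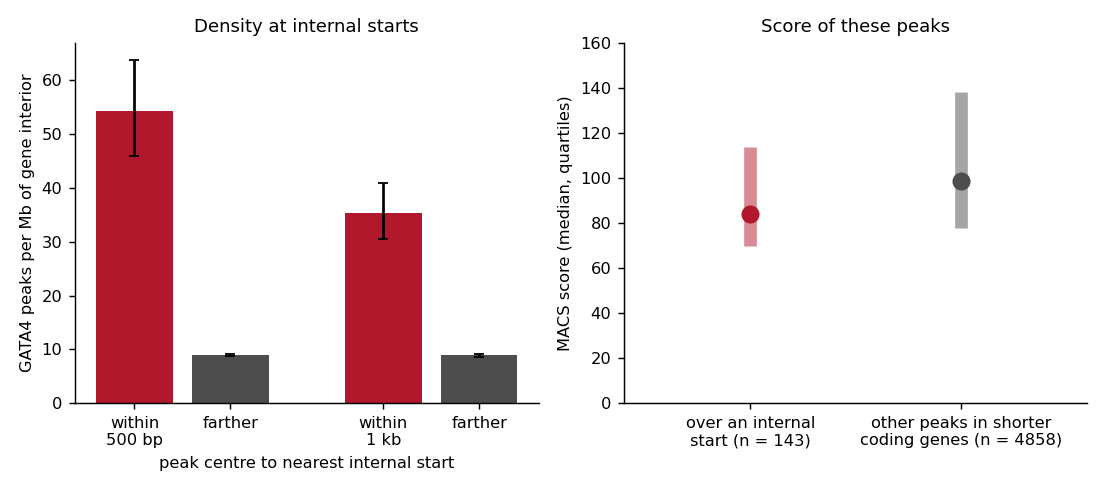
GATA4 peaks around annotated starts inside shorter protein coding genes. Left, peaks per Mb of gene interior within 500 bp or 1 kb of an internal start and farther away, with Poisson 95% intervals; right, median (point) and quartiles (bar) of the MACS score for the 143 peaks over an internal start and for all others. Density near starts was 54.3 per Mb against 8.94 elsewhere, while the median score was 84.1 against 98.8.

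Gene bodies under 200 kb held more peaks per base than longer genes. The rule allows 563 Mb of sequence, and the density there was 9.17 peaks per Mb (Poisson 95% interval 8.93 to 9.43). Genes of 200 kb or more had 6.49 per Mb (6.24 to 6.74) in the sequence over 1 kb from gene ends. The interiors of lncRNA genes alone had 7.42 per Mb (7.001 to 7.86). Gene ends had 19.4 per Mb, and sequence outside genes had 4.18 per Mb, a value that counts assembly gaps as sequence. No test over peaks was made, since the peaks of 1 library are not replicates.

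Within these genes, density was higher in longer genes. It was 7.45 per Mb (6.21 to 8.86) in genes under 10 kb and 7.98 (7.35 to 8.65) in genes of 10 to 25 kb. It was 8.71 (8.18 to 9.26) at 25 to 50 kb, 9.11 (8.66 to 9.58) at 50 to 100 kb and 10.2 (9.70 to 10.6) at 100 to 200 kb. The density at 100 to 200 kb was 1.29 times that of genes under 25 kb. Above the limit it was lower again, with 8.93 per Mb in genes of 200 to 300 kb, 7.504 at 300 to 500 kb and 4.51 in genes over 500 kb. At the limit itself, the last peaks inside the rule were in Clec16a (span 199.6 kb, score 75.6) and Sergef (199.7 kb, score 119). The first outside were a pair in Pcbp3 (200.3 kb, scores 138 and 123). At the 1 kb limit from gene ends, the nearest included peaks were in Thap3 (score 71.6) and Wdr59 (137), and the nearest excluded ones in Plxna2 (61.5) and Cybb (71.5).

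**Figure D2:**
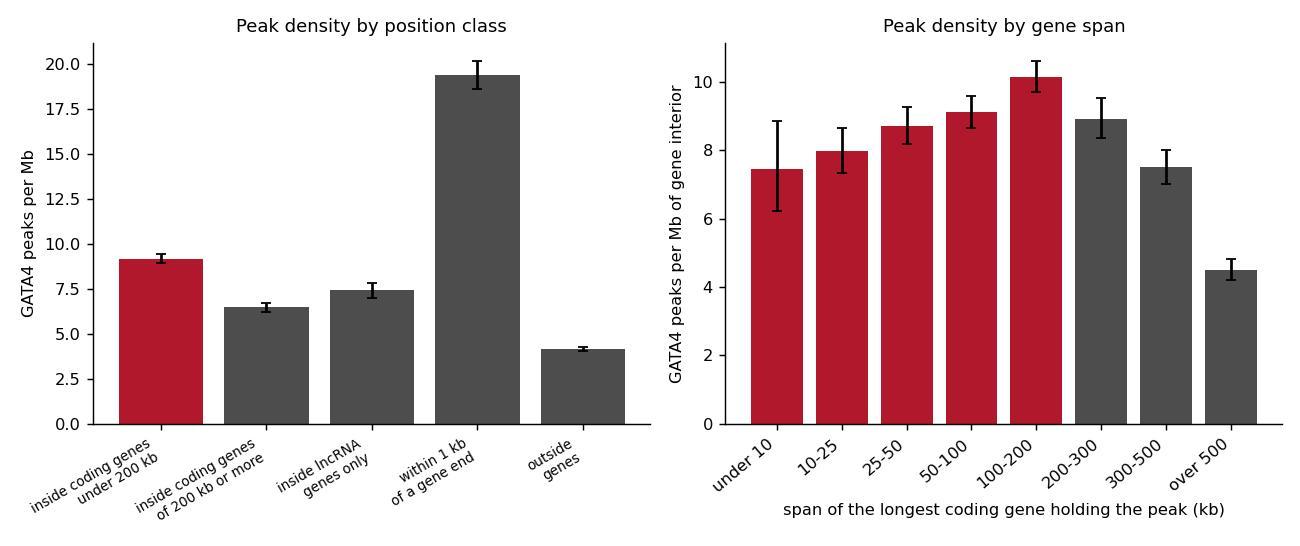
Density of GATA4 peaks by position. Left, peaks per Mb for peaks inside protein coding genes under 200 kb (red) and the other position classes (grey); right, peaks per Mb of gene interior by span of the longest protein coding gene holding the peak. Bars show the value and lines the Poisson 95% interval; density was 7.45 per Mb under 10 kb, 10.2 per Mb at 100 to 200 kb and 4.51 per Mb over 500 kb.

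Peaks were denser toward the 5′ end of genes. The strand was known for the genes of 4203 of the 5164 peaks. Of these, 54.9% (95% interval 53.4% to 56.4%) lay in the 5′ part of the gene up to its midpoint, which holds 50.03% of the allowed bases. With genes cut into 10 equal segments, segments 1, 2 and 3 from the 5′ end had 10.99, 10.4 and 11.1 peaks per Mb. The density was 9.02 per Mb in segment 6 and 8.15 per Mb in segment 10. Without the peaks within 500 bp of an internal start, the share before the midpoint was 53.9% (52.3% to 55.4%). The median distance to the 5′ end was 27.5 kb, with quartiles of 10.8 and 59.2 kb. By absolute distance the density was 10.6 per Mb in the first 5 kb, 8.58 per Mb at 5 to 10 kb and 9.99 per Mb at 100 to 200 kb. Only longer genes reach the far distances.

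**Figure D3:**
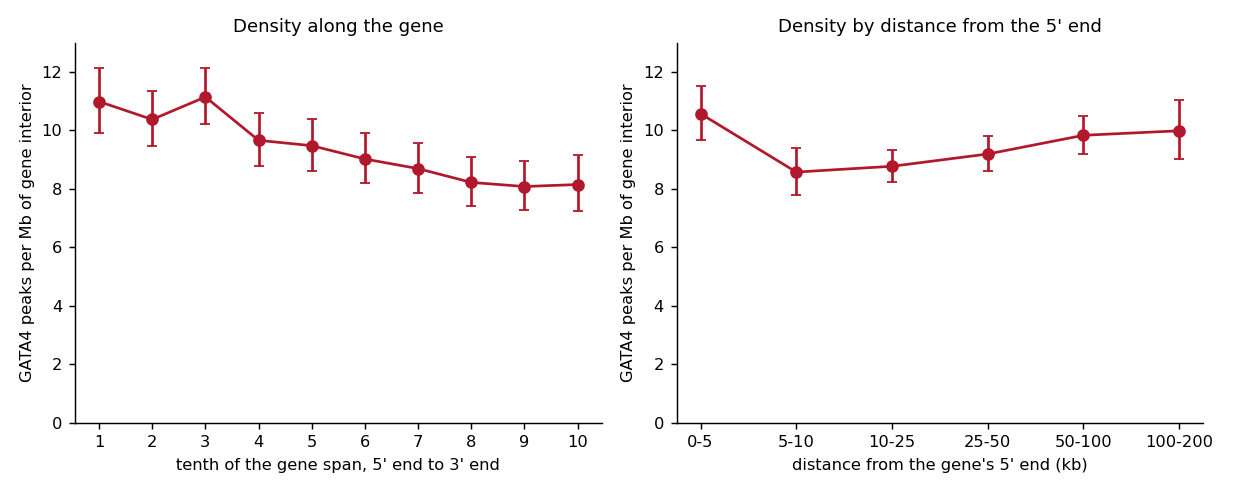
Peaks per Mb of gene interior along genes with a known strand (4203 peaks). Left, by segment (1 of 10 equal parts of the gene span) from the 5′ end; right, by distance from the 5′ end in kb; points show the density and bars the Poisson 95% interval. Density was 10.99 per Mb in segment 1 and 8.15 per Mb in segment 10.

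Scores and widths in these gene bodies were close to those of the rest of the list. The median score was 98.4, with quartiles of 77.7 and 138 and a range from 50.1 to 736, against 99.8 for the 12375 other peaks, with quartiles of 77.8 and 138. The median was 103 in long genes, 86.7 at gene ends and 106 outside genes. Scores above 200 were held by 401 peaks, or 7.77%, against 9.33% of the other peaks and 10.1% of those in long genes. The median width was 737 bp, against 749 bp in the other peaks. A total of 1414 peaks, or 27.4%, had 1 of 13 exact scores that at least 50 peaks of the list share, against 25.1% of the other peaks. These were narrow, with a median width of 490 bp, against 798 bp for peaks with rarer scores.

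Another peak of the list lay within 10 kb of 39.4% of the peaks in these genes (38.0% to 40.7%), against 36.3% of the other peaks (35.4% to 37.1%). Inside lncRNA genes alone the share was 39.9% (37.1% to 42.8%). The median distance to the nearest peak was 16.8 kb, against 19.8 kb in all other peaks and 16.8 kb inside lncRNA genes alone. For 717 peaks, or 13.9%, the next peak was at most 2 kb away. At the other extreme, 1241 peaks, or 24.0%, had none within 50 kb. The median score was 97.0 in the first of these sets and 97.8 in the second.

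The 15 highest-scoring peaks were between 825 and 2745 bp wide, against a median of 737 bp over all peaks of these gene bodies. The highest was the peak in Susd1 (chromosome 4, 59314824 to 59316944, score 736), centred 1.68 kb from the gene's 3′ end. The peak in St3gal1, a sialyltransferase gene (chromosome 15, 67129760 to 67132389, score 620), was 2630 bp wide and lay 28.2 kb from the nearest gene end. Peaks in Mbp (558), Zswim6 (544), Dennd2c (534) and Arnt2 (509) followed, with Zswim6 and Dennd2c over 30 kb inside their genes. Naip1 (480), Ptpre, a receptor tyrosine phosphatase gene (469), Zfp451 (453), Ramp3 (450) and Fig4, a phosphoinositide phosphatase gene (440), completed the named genes among them. The other 4 were in the predicted genes Gm40369 (535), Gm40363 (523), Gm36327 (485) and Gm40367 (446), neighbours on chromosome 6. The sources used here do not state how reads were divided among similar copies, and these 4 peaks and that of Naip1, a member of a gene cluster, are uncertain.

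Of 18110 protein coding genes with allowed sequence, 3118 held at least 1 of the peaks, which is 17.2% (16.7% to 17.8%). At least 3 peaks were held by 487 genes, or 2.69%. Genes with a peak had a median span of 56.8 kb, and genes without one 16.1 kb. The share of genes with a peak was 2.43% under 10 kb, 21.2% at 25 to 50 kb and 57.3% at 100 to 200 kb. Gene span therefore has to be read beside every count of genes. Only 51 peaks lay in 2 protein coding genes and 1 in more. A further 222 peaks, or 4.30%, also lay inside an lncRNA gene, where the density was 11.02 per Mb (9.62 to 12.6), against 9.11 per Mb (8.85 to 9.36) elsewhere.

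The gene with the most peaks was Mical2, which encodes an actin-oxidising monooxygenase. It held 13 peaks over 129 kb, at 102 per Mb of its allowed sequence (54.3 to 175), with scores from 71.6 to 259 and a median of 119. Its highest peaks lay 91.8 kb and 64.7 kb from the 5′ end, with scores of 259 and 212. Smad3, the TGF-beta signal transducer at chromosome 9, 63646766 to 63757994, held 11 peaks, at 105 per Mb. A group of 4 lay between 10.1 and 15.4 kb from its 5′ end, with scores of 211, 62.5, 290 and 126. Another pair at 80.0 and 94.9 kb scored 243 and 177.

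Arnt2, Hivep2 and Lrrfip1 also held 11 peaks each. Arnt2 encodes a bHLH-PAS transcription factor and had the widest range of scores, from 53.2 to 509, with a median of 122. Its 3 highest lay at 24.0, 26.4 and 97.6 kb from the 5′ end, with scores of 382, 394 and 509. Hivep2, a zinc finger transcription factor gene, had the highest median of these genes, 213, and 6 of its peaks between 38.9 and 87.1 kb scored 213 to 320. The score of 213 is a value that 104 peaks share, and that peak was 489 bp wide. Another of these peaks, 402 bp wide, had a score of 294 that 15 peaks hold. Lrrfip1 had scores from 69.7 to 244. Myh9, the heavy chain of non-muscle myosin IIA, held 10 peaks at 126 per Mb, all between 67.0 and 131, with 6 of them between 35.3 and 43.4 kb from the 5′ end. Arid5b (52.4 to 340), Fbxl13 (64.3 to 355) and Sytl2 (67.6 to 215) also held 10 peaks each.

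Ranked by density among genes with at least 3 peaks, short genes came first. Mapk6, the gene of the kinase ERK3, held 8 peaks in 21.2 kb of allowed sequence, at 377 per Mb (163 to 742). They ran from 2.0 to 17.3 kb from the 5′ end, and their scores were moderate, from 57.3 to 133. Plet1, Plekho1, Pigp, Pdlim4, Dusp8, Glipr1 and Iffo1 followed with 3 peaks each, at 206 to 362 per Mb, and Zbtb25 and Rhof with 4 each, at 209 and 185 per Mb. Pdlim4 encodes a PDZ-LIM protein of the actin cytoskeleton, Rhof a small GTPase and Dusp8 a MAP kinase phosphatase. The highest score among these genes was 368 in Glipr1, while the peaks of Iffo1 scored 55.0 to 73.5. With 3 or 4 peaks the intervals are wide, for example 74.7 to 1059 per Mb for Plet1.

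**Figure D4:**
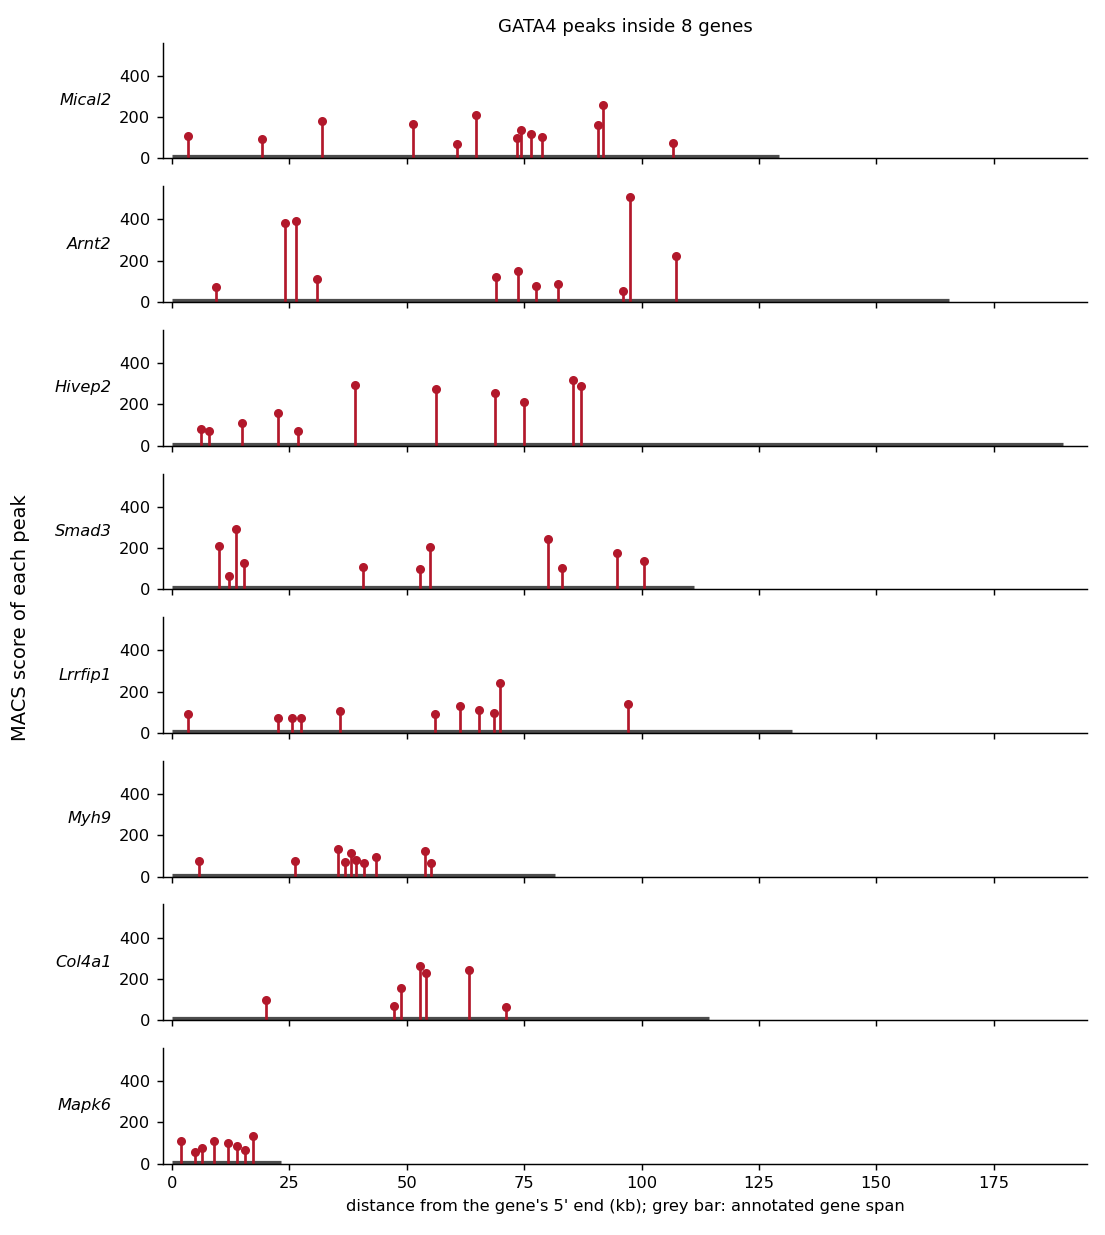
GATA4 peaks inside 8 genes, drawn by distance from the 5′ end in kb along the annotated gene span (grey bar). The height of each red line is the MACS score of that peak. Peaks of Mapk6 and Myh9 stayed at or below 133, while single peaks of Arnt2 reached 509.

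Gene lists were described by the share of their genes with a peak and by peaks per Mb of allowed sequence, without a test. Over all 18110 genes these were 17.2% and 9.18 per Mb. To account for gene span, each list's share is set beside the share that all genes have in the same span classes. The exact interval lay above this span-matched share only for the matrix, integrin, FGF, Hippo, satellite cell and chromatin lists. The satellite cell share was lower without chromosome 10, at 43.8%, and the span-matched comparison was not repeated in that setting. The margin was small for chromatin regulators, with a lower limit of 37.7% against 37.2%. In all other lists, the interval of the share contained the span-matched share. Genes of 200 kb or more were left out of every list, and a few genes stand in more than 1 list. The best scores named below for Adamts9, Eya1, Pax7, Mef2a, Egfr, Grb10, Dusp4, Bcl9 and Dll1 were shared values, as described above. The same holds for Crebbp, Gatad2a, Smarca2, Smarca4, Cdk6 and Myocd, and peaks with shared scores were narrow as a group.

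Genes of the muscle contractile and adhesion apparatus held more peaks per Mb than all genes. Of 26 sarcomere and contractile genes, 11 held a peak (42.3%, interval 23.4% to 63.1%, span-matched 26.2%). Their density was 27.3 per Mb (19.2 to 37.6). Myom2 and Myom1, which encode M-band proteins that crosslink thick filaments, had the highest scores, 362 and 335. Pdlim5, a Z-disc PDZ-LIM gene, held 5 peaks of up to 177, and the tropomyosin gene Tpm1 held a pair of 151 and 70.2. A large part of the count came from Myh9 and from Actn4, which held 6, and both encode non-muscle proteins. Among peaks above the median score of the whole peak list, sarcomere and contractile genes had 8.12 peaks per Mb. All genes had 4.55 per Mb there, so the excess was smaller among higher-scoring peaks. Of 15 dystrophin complex and costamere genes, 7 held a peak (46.7%, interval 21.3% to 73.4%, span-matched 26.8%). The density of this list was 24.97 per Mb (14.5 to 39.98). Vcl, the gene of vinculin, held 7 peaks with scores from 96.6 to 148, spread from 1.6 to 75.7 kb from its 5′ end. Sgce (136) and Dag1 (106), which encode epsilon-sarcoglycan and dystroglycan, held 2 each.

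Matrix and integrin genes had the highest shares with a peak. Of 34 extracellular matrix genes, 23 held a peak (67.6%, span-matched 36.3%), at 26.5 per Mb (20.4 to 33.8). Col4a1, a basement membrane collagen gene, held 7 peaks, and 4 of them between 48.8 and 63.3 kb from the 5′ end scored 155, 263, 231 and 241. Col4a2, its neighbour, and Col18a1 held 8 peaks each. Adamts9, a matrix metalloprotease gene, held 9 peaks of up to 229. Col1a2 and Fn1, which encode a fibrillar collagen chain and fibronectin, held 2 each, with best scores of 256 and 227. Of 24 integrin and focal adhesion genes, 16 held a peak (66.7%, span-matched 33.5%), at 20.6 per Mb (14.4 to 28.7). Itgb6 held 5 peaks of up to 395, Itgb5 held 3 of up to 234, and Lims1, a focal adhesion adaptor gene, held 7 of up to 181. Parva, which encodes the actin-binding partner of integrin-linked kinase, held 1 with a score of 187.

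Actin dynamics and calcium handling genes had lower densities than the sarcomere, dystrophin complex, matrix and integrin lists. Of 24 actin dynamics genes, 11 held a peak (45.8%, span-matched 39.1%), at 16.7 per Mb (11.7 to 23.1), with Pak1 (253), Daam1 (205) and Cdc42 (197) highest. Of 16 calcium handling genes, 7 held a peak (43.8%, span-matched 30.2%), at 15.2 per Mb (8.48 to 24.99). Jph1 and Jph2, which encode the junctophilins that hold membrane junctions together, had scores of 277 and 169, and Atp2b1 (125) and Camk2g (122) followed. The Jph1 score was held by 27 peaks of the list, below the cut of 50 for shared values. That peak was narrow, at 371 bp.

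Of 19 myogenic regulators, 8 held a peak (42.1%, span-matched 22.0%), at 11.8 per Mb (5.91 to 21.2). The highest were in Eya1 (153), Pax7 (97.0), Mef2c (91.3) and Six4 (89.5), and Mef2a held 4 peaks, the highest at 84.1. Among peaks above the list's median score, this list had 1.08 peaks per Mb against 4.55 over all genes, so its position above all genes rested on lower-scoring peaks. Of 19 satellite cell genes, 10 held a peak (52.6%, span-matched 24.8%), at 21.9 per Mb (13.7 to 33.1). Without chromosome 10 these values were 43.8% and 16.3 per Mb, against 16.8% and 8.83 per Mb over all genes. Megf10, a receptor of satellite cells, held 5 peaks of up to 308, Foxo3 held 4 of up to 213, and Sdc4 (177) and Tek (140) followed. The myoblast genes Pax7 and Itga7 held 1 peak each with a score of 97.0, which for Pax7 is a value that 659 peaks share. The short genes Myod1 and Myf5 held none in their allowed sequence of 0.617 and 2.02 kb. That is too little sequence for the absence to be informative. The remaining myoblast markers are not reported here, and no share was computed for these markers as a list.

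Several signalling lists had higher densities than all genes. Of 23 Hippo, YAP and TEAD genes, 11 held a peak (47.8%, span-matched 23.4%), at 23.3 per Mb (14.7 to 34.9). They were led by the TEAD cofactor genes Vgll3 (4 peaks, best 266) and Vgll4 (5 peaks, best 206), with Mob1b (233) and the receptor kinase gene Axl (4 peaks, best 147). Of 31 TGF-beta and BMP genes, 14 held a peak (45.2%, span-matched 28.9%), at 17.8 per Mb (12.1 to 25.1), where Smad3 supplied 11 of 32 peaks. Tgfbr1, a TGF-beta receptor gene (248), Ltbp2 (230) and Smurf1 (207) came next. Of 33 FGF and receptor kinase genes, 17 held a peak (51.5%, span-matched 28.5%), at 18.6 per Mb (12.8 to 26.1), with scores of 213 in Egfr, 198 in Grb10 and 153 in Dusp4. Notch genes had 6 of 19 (31.6%, span-matched 22.9%) and 14.4 per Mb, with the protease gene Adam10 at 413 highest. Notch1 (159), Dll1 (124) and Notch2 (95.5) followed. Wnt genes had 8 of 28 (28.6%, span-matched 31.3%) and 8.66 per Mb (5.05 to 13.9), with Tcf7l2 (332), Bcl9 (167), Tcf7l1 (152) and Tle3 (127) highest.

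AP-1 and stress kinase genes had 6 of 20 (30%, span-matched 16.8%) and 17.6 per Mb (8.43 to 32.3), led by Jdp2 (144) and Fosl2 (139). GATA factors and cofactors had 6 of 15 (40%, span-matched 24.6%) and 16.8 per Mb (8.38 to 30.04). Crebbp, an acetyltransferase gene, had a score of 229, Gatad2a one of 198, and Zfpm1, which encodes the GATA partner FOG1, held 4 peaks of up to 132. Chromatin regulators had 18 of 32 (56.3%, span-matched 37.2%) and 15.1 per Mb (10.7 to 20.7), with scores of 198 in Smarca2 and 153 in Smarca4, which encode the ATPases of chromatin remodelling complexes. Cell cycle genes had 6 of 30 (20.0%, span-matched 15.3%) and 12.2 per Mb (6.10 to 21.9), with Cdk6 (198) highest. Brown fat and energy regulators had 5 of 15 (33.3%, span-matched 29.1%) and 12.1 per Mb (6.02 to 21.6), and Pparg held 4 peaks of up to 132.

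Smooth muscle and pericyte genes had 6 of 14 with a peak (42.9%, span-matched 20.9%), at 21.3 per Mb (11.6 to 35.7), and Cald1 supplied 7 of the 14 peaks. Cardiac structural and conduction genes had 2 of 21 (9.52%, span-matched 14.05%), at 3.67 per Mb (0.444 to 13.3). The higher score was in Myocd, which encodes the SRF coactivator myocardin, at 182. That score was among the shared values and the peak was narrow, at 491 bp. Ribosomal and housekeeping genes are short, and 2 of 30 held a peak (6.67%, span-matched 6.13%).

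Marker genes of most other cell types held few or no peaks in the gene body. No peak was found in 14 blood and immune markers (0%, upper limit 23.2%; span-matched 19.7%), 15 liver and gut markers (upper limit 21.8%; span-matched 16.7%) or 9 epithelial markers (upper limit 33.6%; span-matched 17.5%). Of 13 neuronal markers, Gad2 held 3 peaks and the others none (7.69%, span-matched 23.2%), and of 14 endothelial markers Tek and Cdh5 held peaks (14.3%, span-matched 28.9%). Fibroblast and fibro-adipogenic markers had 4 of 14 (28.6%, span-matched 15.1%), with Dpt (190) and Loxl1 (128) highest. The exact intervals of these 6 shares all contain the 17.2% of all genes. By density, the upper limits of the blood and liver lists, 7.44 and 8.73 per Mb, were below the 9.18 per Mb of all genes. A peak is no measure of expression.

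**Figure D5:**
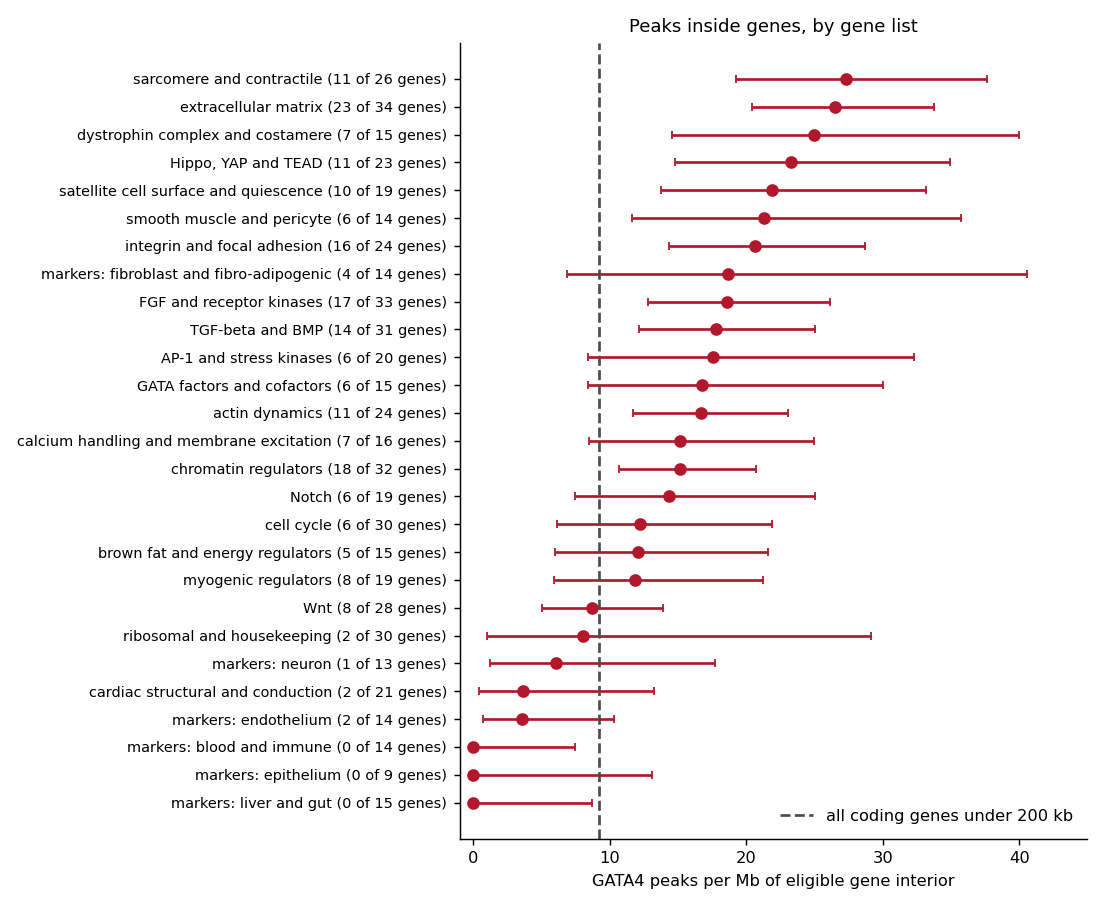
Peaks per Mb of allowed gene interior for 27 gene lists, with Poisson 95% intervals; labels give the number of genes with a peak. The dashed line marks the 9.18 per Mb of all protein coding genes under 200 kb. Intervals of the sarcomere, matrix, dystrophin complex, Hippo, satellite cell, smooth muscle, integrin, FGF, TGF-beta, actin and chromatin lists lie above the line, and those of the blood and liver lists below it. The densities were not matched for gene span. The intervals count each peak as independent, although 39.4% of the peaks had another within 10 kb.

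The peaks were uneven over the chromosomes. Chromosome 10 had 15.8 per Mb of allowed sequence (14.4 to 17.4), against 9.19 per Mb over the other autosomes, a ratio of 1.72. Chromosome 14 had 5.80 per Mb (4.82 to 6.94), and the remaining autosomes ranged from 8.21 to 10.8 per Mb. Chromosome X had 1.82 per Mb (1.31 to 2.45), or 0.190 times the autosomal value of 9.53. Chromosome 10 held 8.501% of the peaks, and leaving it out changed the density over all these genes to 8.83 per Mb.

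A few small RNA genes inside host genes lay under peaks. By annotated type, peaks overlapped 4 miRNA genes, 4 snoRNA genes, 6 snRNA genes and 5 tRNA genes. The small RNA genes without a peak were not counted, so these counts cannot be set against a background share. The host gene Tex14 on chromosome 11 held 4 of the genes annotated as snRNA under peaks. Their scores were 118 at Rnu1a1, 96.5 at Gm22068, 169 at Rnu3b3 and 170 at Rnu3b2. These are members of multicopy families, so how reads were divided among copies is uncertain. Mir378a, a miRNA inside Ppargc1b, lay under a peak with a score of 71.6. A peak inside Fcgr3 (score 172) covered a pair of tRNA genes and Mir6546.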

How the data were processed

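GATA4 and IgG ChIP DNA of mouse myoblasts was sequenced, 1 library each. The authors deposited a BED file of peak positions, each with a MACS score. The submitters' processing notes name CASAVA 1.8, Bowtie and the build GRCm38 (mm10), and MACS ran in Galaxy, per the file header. No source used here gives the MACS version, threshold, duplicate handling, depth or role of the IgG library, whose reads were not analysed here. The peak list was assigned to the GATA4 library by its name.

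Peak centres were classed by position with Python 3.11.15, numpy 2.4.6, pandas 2.3.3 and scipy 1.17.1 against 21887 protein coding and 12727 lncRNA genes of RefSeq GRCm38.p6. Allowed bases were counted with the same rule, which was tested on simulated data. Strand and internal starts came from a RefSeq start table, which holds no exons. Intervals are exact Poisson, or exact Clopper-Pearson for shares, at 95%. All 27 gene lists (654 entries) matched. The members and lists were chosen with earlier results of these data known, so no p-value was computed.

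Genes named were the 15 highest peaks, the 10 genes with most peaks, the 10 densest, and up to 4 per list by score; other genes were chosen after their values were seen. The planned motif count over all peaks was not run, since no genome was used here. Some genes that this rule names are not reported here.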

Additional observations from a re-analysis of the deposited data

How the results depend on the processing

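Of 70 values recomputed under alternatives, 45 stayed within 1.5 times the count or within the counting interval, and 25 did not. With the peaks above the list's median score only, 2556 peaks remained, with a median score of 138 and width of 760 bp, 4.54 peaks per Mb, 10.3% of genes with a peak, 23.6% with a neighbour within 10 kb, a ratio of 1.44 between the longest and shortest genes, and 18.2 peaks per Mb at internal starts. With the whole peak inside, density was 8.87 per Mb. Kept 5 kb from gene ends, 18.5% of genes held a peak, 37.5% of peaks had a neighbour and the span ratio was 1.47. With a limit of 100 kb there were 3263 peaks, 8.69 per Mb and 13.8% of genes; with 500 kb, 8.88 per Mb and 19.2% of genes. Without chromosome 10, density was 8.83 per Mb. Chosen after seeing the data were the runs without the shared scores (median score 95.8, width 798 bp, 6.66 per Mb, 13.5% of genes, 33.4% with a neighbour, 42.6 per Mb at internal starts) and a window of 1 kb around internal starts (35.4 per Mb), with every other run on internal starts. Runs that drop peaks lower counts, densities and shares of genes by construction, and keeping only higher-scoring peaks raises the median score. The cause of the other moves was not tested. Of 27 gene lists, 21 kept their side of the all-gene density. Among higher-scoring peaks the myogenic, calcium, AP-1 and cell cycle lists fell below it (1.08, 4.04, 3.52 and 4.45 against 4.55 per Mb). Wnt genes moved above it without chromosome 10 (9.04 against 8.83 per Mb). Without shared scores housekeeping genes moved above it (8.07 against 6.67 per Mb) and the myogenic list moved below it (6.46). No paired analysis was possible because there was 1 library per antibody. The motif window could not be varied without a genome.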
